A study of Mus musculus with 8 samples.

Results

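The genes described here are 10 subunits of the CCR4-NOT complex, Cnot1, Cnot2, Cnot3, Cnot4, Cnot6, Cnot6l, Cnot7, Cnot8, Cnot10 and Cnot11. These were taken by symbol, with earlier results of these data known. They are 10 of the 13838 genes measured, and all 10 had a row in the footprint table and in the total RNA table. J1 cells, an embryonic stem cell line of the mouse strain 129S4/SvJae, were kept without feeders in serum and leukemia inhibitory factor. They expressed either control shRNAs (shNT, shGFP) or shRNAs against eIF4A2 (sheIF4A2-2, sheIF4A2-3), were selected with puromycin at 1 μg/mL for 3 days and were collected on day 4.5 after a short cycloheximide treatment, in knockdown and control alike. Ribosome footprints, the mRNA fragments that ribosomes shield from nuclease, and total RNA were sequenced from 2 libraries of each condition. The sources used here do not tell which shRNA went into which library. The libraries are described as biological replicates, and p-values measure the spread between these libraries only.

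CCR4-NOT is the main enzyme that shortens poly(A) tails in the cytoplasm, the step with which most mRNA decay begins. It is built on the scaffold Cnot1. The catalytic subunits come as interchangeable paralogs, Cnot7 or Cnot8 of the CAF1 type and Cnot6 or Cnot6l of the CCR4 type, and Cnot2 with Cnot3, and Cnot10 with Cnot11, form further modules on the scaffold. RNA-binding proteins and the microRNA machinery bring the complex to its targets, and it is needed to maintain embryonic stem cells. eIF4A2, a DEAD-box helicase of the initiation machinery, has been linked to the complex in microRNA-mediated repression, while the related helicase Ddx6 binds Cnot1.

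Values are written as CPM, reads scaled to a common library size. Differences are log2 differences of knockdown minus control on the log2(CPM + 1) scale, which understates the change of genes with few reads, and are given with their standard error (SE). Libraries held between 7947827 and 12840349 reads, and the members between 31 and 6301 reads per library in footprints and between 127 and 13229 in total RNA. Eif4a2 itself had 311 and 153 CPM in the knockdown footprints against 395 and 409 CPM in the control, and 583 and 617 CPM against 739 and 969 CPM in total RNA. It was below every control library without passing limma's threshold of 0.05 (adjusted p = 0.273 and 0.29). With a library left out, its difference ran from -1.38 to -0.37 in footprints and from -0.69 to -0.30 in total RNA. The summed level of 10 embryonic stem cell markers was 4912 and 5074 CPM in the knockdown footprints against 6915 and 7290 CPM in the control, and 4803 and 4845 against 6577 and 7287 CPM in total RNA. The fall was uneven. Zfp42 had means of 890 against 2164 CPM in footprints. Of the 10 markers, 6 lay below both controls in footprints, where 22.5% of all genes did, and 8 in total RNA, where 24.6% did. Utf1 went the other way (0.26 ± 0.17 and 0.42 ± 0.30), with overlap in total RNA. Of 14 fibroblast markers 9 were analysed here, and they summed to between 26.0 and 42.8 CPM in every library. The sums of knockdown and control overlapped in footprints, and the knockdown sums were lower in total RNA. Single fibroblast markers went both ways, with 3 of 9 positive in footprints and 4 of 9 in total RNA. None was at 0 in any library. In such bulk samples, fewer cells of a type and less RNA per cell cannot be told apart. The part of these marker differences in the results below was not tested.

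No subunit passed the threshold of 0.05 in either assay. By limma with Benjamini-Hochberg adjustment over all genes, 0 of 10 members were called in footprints, where 0% of 12723 genes were called, and 0 of 10 in total RNA, where 0% of 13436 were. At an unadjusted p below 0.05 there were 0 members in footprints (12.9% of all genes) and 1 in total RNA (14.9% of all genes), Cnot11. The median difference of the members was -0.06 in footprints and -0.0080 in total RNA, beside 0.0052 and -0.0024 over all genes. Without regard to sign the median difference was 0.21 in footprints and 0.16 in total RNA, beside 0.23 and 0.20 over all genes. Other tools gave the same count in total RNA. There edgeR's quasi-likelihood test called 0 members and 0 of 13436 genes, and DESeq2 0 members and 272 of 12654 genes. In footprints these tools were run only without RPF control 2, which left a lone control library. DESeq2 gave an adjusted p to only 3373 genes there, against 12811 in edgeR's test, and a gene without it could not be called. In the authors' deposited table the lowest FDR of a member was 0.547 in footprints (Cnot6l) and 0.252 in total RNA (Cnot11), and 1.68% and 5.4% of all genes had an FDR below 0.05 there.

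**Figure D1:**
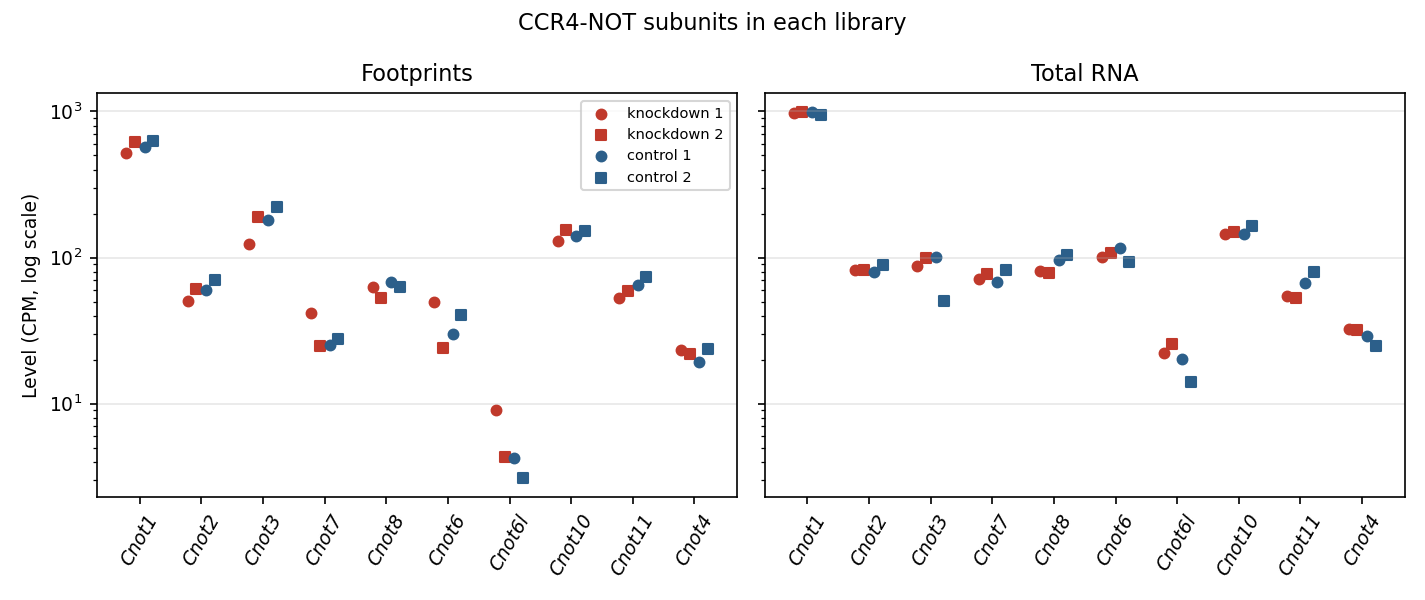
Level of each subunit (CPM, log scale) in footprints (left) and total RNA (right); red points are the 2 knockdown libraries and blue points the 2 control libraries. Knockdown and control points overlap for 8 of 10 subunits in footprints and for 6 of 10 in total RNA, and levels of different genes are not comparable because they are not divided by length.

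The scaffold gave no sign of a difference larger than its replicate spread. Cnot1, on which the other core subunits are assembled, had 517 and 623 CPM in the knockdown footprints and 575 and 624.5 CPM in the control. In total RNA it had 983 and 994 CPM against 985 and 942 CPM. The libraries overlapped in both assays. The differences were -0.08 ± 0.18 in footprints (95% confidence interval -0.49 to 0.33, limma adjusted p = 0.888) and 0.04 ± 0.14 in total RNA (-0.31 to 0.39, adjusted p = 0.932). The sign in footprints turned without RPF knockdown 1, at 0.06. The genes whose centred pattern over the 8 libraries lay nearest to that of Cnot1, out of 8018 with at least 10 CPM on average in both tables, were Rpl29, Pcid2 and Prpsap1, with root mean square log2 distances of 0.037, 0.0383 and 0.0384 where the median gene had 0.198. Cnot1 itself varied little over the libraries, so a small distance mostly marks genes that varied little too. Such a distance does not by itself show a shared pattern. By this distance Cnot10 ranked 133rd, Cnot2 340th, Cnot4 1700th, Cnot8 4067th, Cnot11 4346th, Cnot7 6477th, Cnot3 6647th and Cnot6 7086th.

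Cnot2 and Cnot3, which form the heterodimeric NOT module at the end of the scaffold, differed from each other in the evenness of their replicates. Cnot2 had 50.2 and 60.5 CPM in the knockdown footprints against 60.3 and 70.5 CPM in the control, and 82.4 and 81.6 against 79.3 and 89.0 CPM in total RNA. Its differences were -0.24 ± 0.18 in footprints and -0.03 ± 0.14 in total RNA, the latter 0.05 without control 2 and -0.12 without control 1 of total RNA. The footprint difference was -0.11 without RPF knockdown 1, -0.13 without control 2 and -0.37 without knockdown 2. Cnot3 had 124 and 189 CPM in the knockdown footprints against 182 and 221 CPM in the control. Its total RNA was 88.2 and 99.2 CPM in the knockdown, 101 CPM in control 1 and 50.0 CPM in control 2. A single control library thus stood apart, with the other 3 close together. The Cnot3 difference was -0.39 ± 0.22 in footprints (95% interval -0.90 to 0.11, limma adjusted p = 0.497) and 0.39 ± 0.32 in total RNA (-0.39 to 1.17, adjusted p = 0.611). Without total RNA control 2 the total RNA difference was -0.11, and without control 1 it was 0.89. The footprint difference was -0.09 without RPF knockdown 1, -0.25 without control 2 and -0.69 without knockdown 2.

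The CAF1-type deadenylases Cnot7 and Cnot8, which occupy the same position in the complex, had opposite signs in footprints. Cnot7 had 42.0 and 24.8 CPM in the knockdown footprints against 25.3 and 27.9 CPM in the control, so that only knockdown 1 lay above the control range. In total RNA it had 71.8 and 77.2 CPM against 68.1 and 82.1 CPM, with overlap. The differences were 0.27 ± 0.26 in footprints, -0.09 without RPF knockdown 1, and -0.01 ± 0.15 in total RNA, whose sign also turned without total RNA knockdown 1 (0.05) and without control 2 (0.13). Cnot8 had 62.9 and 52.7 CPM in the knockdown footprints against 68.3 and 62.6 CPM, and 81.3 and 78.6 CPM in the knockdown total RNA against 95.8 and 104 CPM. Its total RNA was lower in both knockdown libraries than in either control. The Cnot8 differences were -0.18 ± 0.17 in footprints (limma adjusted p = 0.707) and -0.32 ± 0.13 in total RNA (95% interval -0.64 to 0.0039, adjusted p = 0.339). The footprint difference was -0.06 without RPF knockdown 2, -0.12 without control 1 and -0.31 without knockdown 1.

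The CCR4-type deadenylases Cnot6 and Cnot6l had the widest gaps between the knockdown replicates in footprints. Cnot6 had 50.0 and 24.1 CPM in the knockdown footprints, a 2.08-fold gap between replicates, against 29.7 and 40.1 CPM in the control. Both control values lay between the knockdown values. Its total RNA was 100.1 and 107 CPM against 116 and 93.8 CPM. The differences were 0.01 ± 0.32 and -0.01 ± 0.16, and the footprint value ranged from -0.50 without RPF knockdown 1 to 0.52 without knockdown 2. It was -0.20 without RPF control 1, and the total RNA value was 0.14 without control 1 and 0.04 without knockdown 1.

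Cnot6l had the fewest reads, between 31 and 80 per footprint library. Its footprints were 9.0 and 4.29 CPM in the knockdown against 4.25 and 3.07 CPM in the control. The 95% exact Poisson intervals, which cover counting error only, were 7.14 to 11.2 and 3.08 to 5.82 CPM in the knockdown and 3.04 to 5.79 and 2.09 to 4.36 CPM in the control, so only knockdown 1 lay outside the other 3. In total RNA Cnot6l had 22.1 and 25.8 CPM against 20.3 and 14.1 CPM. The knockdown was above both controls in each assay, by 0.65 ± 0.36 in footprints (95% interval -0.18 to 1.48, limma adjusted p = 0.488) and 0.47 ± 0.22 in total RNA (-0.06 to 1.00, adjusted p = 0.381). These were the only positive differences of a member with no overlap in both assays. The footprint difference was 0.19 without RPF knockdown 1 and 1.11 without knockdown 2, and the total RNA difference 0.22 without control 2 and 0.72 without control 1.

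Cnot10 and Cnot11, partners in the module at the other end of the scaffold, differed in whether their groups overlapped. Cnot10 had 131 and 154 CPM in the knockdown footprints against 140.1 and 153 CPM, and 146 and 149.8 CPM against 145.6 and 164 CPM in total RNA. Its differences were -0.05 ± 0.16 and -0.06 ± 0.13. The sign turned in footprints without RPF knockdown 1 (0.07) or control 2 (0.02) and in total RNA without control 2 (0.02). Cnot11 had 52.5 and 58.6 CPM in the knockdown footprints against 65.0 and 73.2 CPM, and 54.5 and 52.8 CPM against 66.8 and 80.1 CPM in total RNA. It was the only member that lay below both controls in both assays. Its differences were -0.31 ± 0.17 in footprints (95% interval -0.70 to 0.08, limma adjusted p = 0.483) and -0.44 ± 0.15 in total RNA (-0.81 to -0.07, adjusted p = 0.272), the smallest adjusted p of any member.

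Cnot4, a RING-type ubiquitin ligase that is only loosely bound to the mammalian complex, had 23.2 and 21.9 CPM in the knockdown footprints against 19.2 and 23.6 CPM. In total RNA it had 32.2 and 31.9 CPM against 28.9 and 24.8 CPM, above both controls. The differences were 0.08 ± 0.21 in footprints, -0.06 without RPF control 1, and 0.25 ± 0.15 in total RNA (limma adjusted p = 0.497), the latter 0.15 without control 2. Cnot9, a further core subunit that was not among the 10 and that binds the microRNA effector proteins, had 72.5 and 66.6 CPM in the knockdown footprints against 55.2 and 63.2 CPM, and 119 and 123 CPM against 112 and 88.7 CPM in total RNA. Its values were above both controls in each assay without passing the threshold (0.23 ± 0.17 and 0.27 ± 0.16, limma adjusted p = 0.612 and 0.475). With a library left out, the total RNA difference of Cnot9 ran from 0.11 to 0.44.

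Counted together, the groups did not overlap for 2 members in footprints, 1 higher (Cnot6l) and 1 lower (Cnot11). Over all genes 22.3% were higher without overlap and 22.5% lower. In total RNA 2 members were higher without overlap (Cnot4 and Cnot6l, where 23.3% of all genes were) and 2 lower (Cnot8 and Cnot11, where 24.6% were). None of these counts is above the background. The total RNA control libraries differed from each other by an SD of 0.45 in log2 over genes with at least 10 CPM, and the knockdown libraries by 0.13, so the calls depended on which control was kept. Without control 1 limma called 5 members, Cnot3, Cnot4 and Cnot6l as higher and Cnot8 and Cnot11 as lower, but also 46.1% of all genes. Without control 2 it called Cnot8 and Cnot11 as lower (-0.26 and -0.31), and 25.4% of all genes. In these fits the lone control is assumed to vary as the knockdown pair did.

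**Figure D2:**
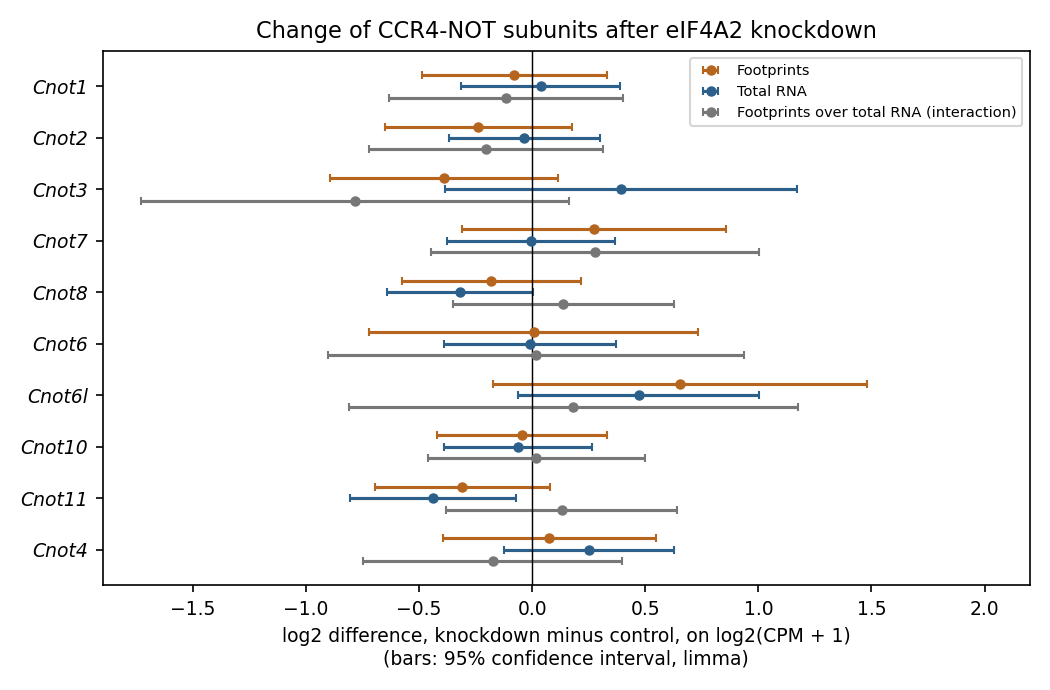
Log2 difference of knockdown minus control for each subunit in footprints (brown), in total RNA (blue) and as the change of their ratio (grey), with 95% confidence intervals from limma. Every interval includes 0 except that of Cnot11 in total RNA, which runs from -0.81 to -0.07 before adjustment.

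The ratio of footprints to total RNA did not change detectably for any subunit. The interaction of assay and knockdown over all 8 libraries called 0 of 10 members (0% of 12358 genes), with 0 members and 1.55% of genes at an unadjusted p below 0.05. Cnot3 had the largest interaction, at -0.78 ± 0.43 (95% interval -1.73 to 0.16, limma adjusted p = 1), where its footprints and its total RNA differed in opposite directions. Without total RNA control 2 it was -0.28, and without control 1 it was -1.28. The other 9 lay between -0.20 (Cnot2) and 0.28 (Cnot7), and 5 of the 10 changed sign when some library was left out. The widest intervals were those of Cnot6l (-0.81 to 1.18), Cnot3 and Cnot6 (-0.90 to 0.94).

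The ratio of footprints to total RNA differed widely among the subunits, while the knockdown and control ranges of each subunit overlapped. The tables were scaled separately, so a ratio is read here only against other genes, and total RNA reads can also fall in untranslated regions, whose lengths were not used and whose part in these ratios was not tested. In control cells the median of 7944 genes with at least 10 CPM in both tables was 0.856, and 5% of genes lay below 0.357 and 5% above 1.76. Cnot3 had the highest ratio of the members, 2.67 (1.80 to 4.43 over the 4 pairings of a footprint with a total RNA library), at the 99.1 percentile of genes. With control 1 alone it was 1.80, at the 94.4 percentile, and in the knockdown 1.67, at the 94.97 percentile. Cnot10 (0.946), Cnot11 (0.941), Cnot4 (0.797), Cnot2 (0.777), Cnot8 (0.655) and Cnot1 (0.622) followed, each overlapping its neighbour in the range over pairings.

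The remaining 3 catalytic subunits came last. Cnot7 had a ratio of 0.354 (0.308 to 0.409), Cnot6 of 0.333 (0.257 to 0.428) and Cnot6l of 0.213 (0.151 to 0.302), at the 4.86, 3.79 and 0.579 percentiles of genes. Cnot6l itself was below 10 CPM in control footprints and is placed against genes above it. Their ranges overlapped one another between neighbours, and none reached that of Cnot1 (0.583 to 0.663) or of Cnot8 (0.601 to 0.713). In the knockdown they were again the 3 lowest, at 0.448, 0.357 and 0.278, where the range of Cnot7 (0.321 to 0.584) reached that of Cnot1 (0.520 to 0.633). Cnot8 thus stood apart from its paralog Cnot7 in this ratio in both conditions, with 0.649 to 0.800 in the knockdown.

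**Figure D3:**
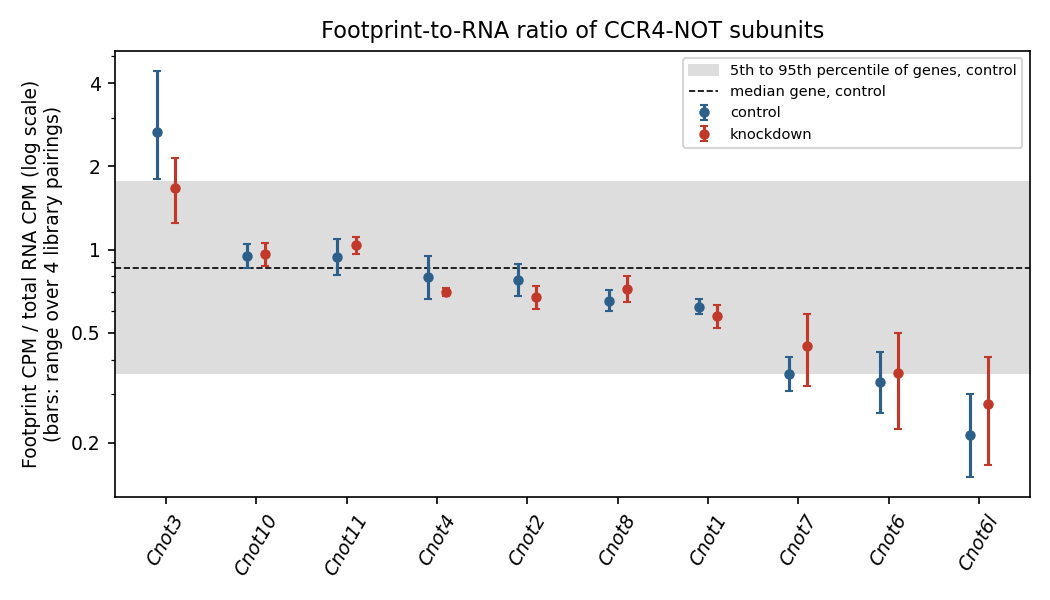
Footprint CPM divided by total RNA CPM (log scale) for each subunit in control (blue) and knockdown (red), with bars for the range over the 4 pairings of libraries; the grey band spans the 5th to 95th percentile of genes in control and the dashed line their median of 0.856. Cnot3 lies at the top and Cnot7, Cnot6 and Cnot6l lie at the bottom in both conditions.

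Because Cnot7 and Cnot8, and Cnot6 and Cnot6l, exclude each other in the complex, their balance was followed in every library as the log2 ratio of the paralogs, taken as the distance from the control mean, in which gene length cancels. For Cnot7 over Cnot8 it was 0.72 and 0.21 in the knockdown footprints against -0.13 and 0.13 in the control, and 0.24 and 0.39 against -0.07 and 0.07 in total RNA. The knockdown libraries were above the controls in both assays, by 1.38-fold and 1.25-fold on average, with the footprint shift of 0.47 falling to 0.21 in knockdown 2 alone. For Cnot6 over Cnot6l it was -0.78 and -0.77 in the knockdown footprints against -0.45 and 0.45 in the control, a mean shift smaller than the 0.90 between the control libraries. In total RNA it was -0.44 and -0.57 against -0.11 and 0.11. The knockdown libraries lay below the controls in both assays, at 0.583 and 0.704 of the control mean. In total RNA the 2 balances largely restate the differences of Cnot8 (-0.32) and Cnot6l (0.47), as Cnot7 and Cnot6 were each at -0.01. These shifts of the balance were not tested, and an exact permutation test of 2 against 2 libraries could not go below a two-sided p of 0.333. Among single genes, between 22.3% and 24.6% lay apart from control in a given direction, and the share among pairs of genes was not computed. Whether a footprint and a total RNA library share a culture is not stated in the labels.

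**Figure D4:**
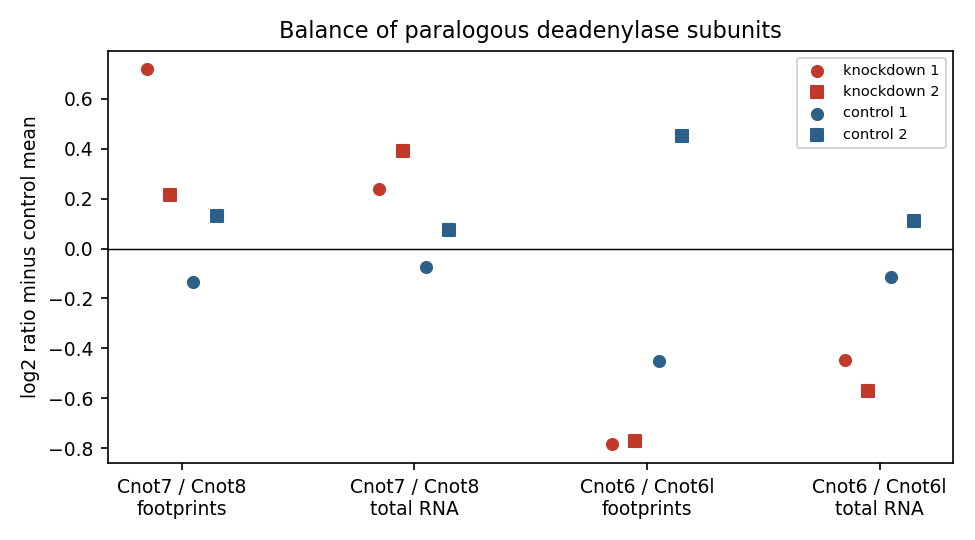
Log2 ratio of the paralogous catalytic subunits in each library, minus the mean of the 2 control libraries, for Cnot7 over Cnot8 and Cnot6 over Cnot6l in footprints and total RNA. Red knockdown points lie above the blue control points for Cnot7 over Cnot8 and below them for Cnot6 over Cnot6l.

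Around the complex, limma called no gene of the deadenylation pathway in any of the 3 comparisons when all libraries were kept and no replicate block was fitted. Proteins that bring CCR4-NOT to mRNAs, from the microRNA effectors to Pumilio, Nanos, CPEB and AU-rich element binding proteins, had positive differences in 21 of 24 genes in footprints (median 0.31) and in 21 of 25 in total RNA (median 0.30), 13 of them higher without overlap in each assay (22.3% and 23.3% of all genes). This list was drawn up with earlier results of these data known. With a library left out, its positive genes numbered between 18 and 22 in footprints and between 16 and 24 in total RNA. The footprint median was 0.21 without RPF knockdown 1 and 0.56 without knockdown 2, and the total RNA median 0.15 without control 2 and 0.48 without control 1. Zfp36 (tristetraprolin), which binds AU-rich elements, had 8.55 and 9.10 CPM in the knockdown footprints against 2.34 and 4.86 CPM in the control (1.15 ± 0.33, limma adjusted p = 0.231), and 5.29 and 5.26 against 2.97 and 2.22 CPM in total RNA. The Argonaute Ago1 had 37.8 and 37.8 against 24.4 and 24.0 CPM in footprints (0.62 ± 0.18), and its partner Tnrc6b, the GW182 protein that contacts CCR4-NOT, 64.7 and 72.3 against 50.2 and 40.9 CPM (0.58 ± 0.18). In total RNA the germline RNA-binding protein Nanos3 had 6.47 and 6.39 against 3.31 and 3.22 CPM (0.80 ± 0.18, limma adjusted p = 0.144) and the cytoplasmic polyadenylation factor Cpeb1 7.02 and 6.84 against 3.31 and 3.77 CPM (0.81 ± 0.19). These 5 genes were above control in every knockdown library, and none passed over all genes in the fit of all 4 libraries without a replicate block. Zfp36, Nanos3 and Cpeb1 were named as the 3 recruiters with the smallest p in total RNA. With a library left out, their total RNA differences ran from 0.66 to 0.96, from 0.79 to 0.82 and from 0.73 to 0.88.

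**Figure D5:**
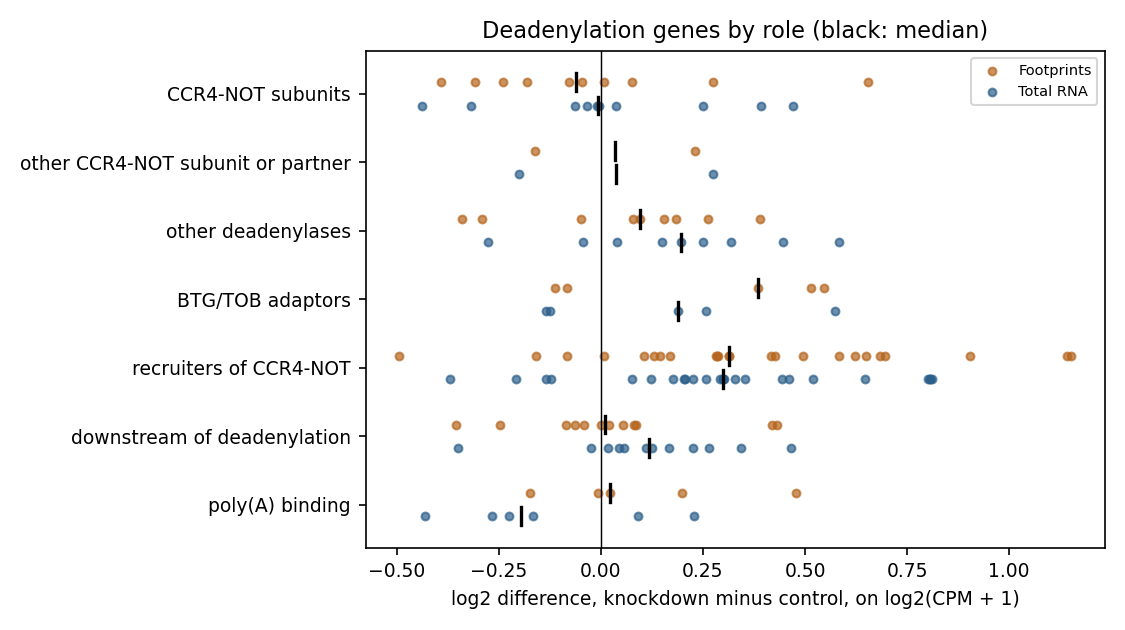
Log2 difference of knockdown minus control for single genes of the deadenylation pathway, grouped by role, in footprints (brown) and total RNA (blue); black marks are group medians. CCR4-NOT subunits scatter around 0 (medians -0.06 and -0.0080), and recruiters of the complex lie mostly to the right (medians 0.31 and 0.30).

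The antiproliferative BTG/TOB proteins, which bind the CAF1-type subunits, were positive in 3 of 5 genes in each assay, with 2 in footprints without RPF knockdown 1 and 4 without knockdown 2 or control 1. Tob2 had 12.5 and 9.0 CPM in the knockdown footprints against 6.16 and 8.23 CPM (0.51 ± 0.28), and 17.6 and 21.0 against 15.1 and 10.5 CPM in total RNA (0.57 ± 0.22). Tob1 had 0.38 ± 0.20 and 0.26 ± 0.26, the latter -0.09 without total RNA control 2. Btg2 had 0.55 ± 0.35 and 0.19 ± 0.19, with signs that turned without RPF knockdown 1 (-0.05) and without total RNA control 1 (-0.03). Of 9 genes listed here as other deadenylases, 6 were positive in footprints and 7 in total RNA. Noct (nocturnin), a relative of the CCR4-type subunits by its nuclease fold, had 101 and 119 CPM in the knockdown footprints against 77.5 and 89.7 CPM, and 117 and 126 against 82.9 and 78.4 CPM in total RNA (0.58 ± 0.13, limma adjusted p = 0.141). Pan2, the catalytic subunit of the separate PAN2-PAN3 deadenylase, was below both controls in each assay (-0.34 ± 0.16 and -0.28 ± 0.14). Pnldc1 had -0.29 ± 0.21 in footprints and Angel2 0.32 ± 0.13 in total RNA, and Tnks1bp1, a protein associated with CCR4-NOT, -0.16 ± 0.21 and -0.20 ± 0.18. Tnks1bp1 turned positive without RPF control 1 (0.06) or total RNA control 1 (0.0040).

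Genes that act after deadenylation or on the tail itself were mixed. The 12 genes of decapping and decay had medians of 0.01 in footprints, with 6 positive, and 0.12 in total RNA, with 10 positive. In total RNA the median was -0.08 with 4 positive without control 2, and 0.27 without control 1. In footprints it was -0.07 without RPF knockdown 1, -0.04 without control 1, 0.10 without knockdown 2 and 0.04 without control 2. The helicase Ddx6, which docks on Cnot1, had 172 and 207 CPM in the knockdown footprints against 217 and 269 CPM, below both controls (-0.36 ± 0.18, limma adjusted p = 0.45), but 327 and 338 against 367 and 311 CPM in total RNA (-0.02 ± 0.15, 0.10 without control 1). Its partner Eif4enif1 (4E-T), a translational repressor, was above control in every knockdown library (0.42 ± 0.18 in footprints and 0.47 ± 0.17 in total RNA). The decapping enzyme Dcp2 was below both controls in total RNA (-0.35 ± 0.13), and Dcp1a had 0.26 ± 0.14 there. Edc3 had -0.25 ± 0.18 in footprints. Poly(A)-binding protein Pabpc1, which stimulates deadenylation by contacts with TOB and PAN3, had 1011 and 916 CPM in the knockdown footprints against 657 and 726 CPM (0.48 ± 0.18, limma adjusted p = 0.316), and overlapped in total RNA (0.09 ± 0.35). Of its regulators, Paip1 had 0.20 ± 0.21 in footprints and 0.23 ± 0.15 in total RNA, and Paip2b -0.17 ± 0.27 and -0.43 ± 0.16, the former 0.19 without RPF knockdown 2 and 0.03 in edgeR's quasi-likelihood test and in DESeq2 without RPF control 2. Pabpc4 had -0.23 ± 0.15 in total RNA. The other eIF4A genes, Eif4a1 (-0.38 ± 0.27 and -0.29 ± 0.20) and Eif4a3 (-0.07 ± 0.18 and 0.05 ± 0.16), were not called with all libraries kept. Eif4a1 lay below both controls in footprints, where 22.5% of all genes did, and in total RNA, where 24.6% did. Eif4a3 overlapped with control in each assay. The sign of Eif4a3 turned in footprints without RPF knockdown 1 (0.10) or control 2 (0.05) and in total RNA without control 1 (-0.11). Of the 21 genes outside the 10 members that were followed in total RNA, 0 passed with all 4 libraries and no replicate block. Most of these 21 were named for having the smallest p of their list in these same data.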

How the data were processed

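The authors deposited 1 table of footprints and 1 of total RNA. Per the file headers and values, library columns hold a signal, reads per gene divided by an effective library size, on the CPM scale. The deposited tables also hold the authors' log2 fold changes, likelihood ratio as a score and p-values. Tools listed, without roles, in the submitters' processing notes are edgeR 3.26.8, HTSeq 0.11.2, TopHat2 2.1.1 and Bowtie 1.2.3, with the build mm9. Divided by the smallest value of their column, 100% of values were whole within 0.01 read in each of 8 columns. RPF control 2 entered no count test: its step of 0.0991 CPM per read lies so near a power of 10 that an automatic check does not accept it, although its values are whole like the others.

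limma 3.58.1 (R 4.3.3) was run here on log2(CPM + 1) over whole tables, 2 libraries against 2, with a variance prior following the mean and Benjamini-Hochberg adjustment. Genes were kept by filterByExpr (edgeR 4.0.16, minimum count 10, minimum total 15). A limma fit of the same form, with a simpler filter, was tried on simulated counts. Those counts had the same spread in every library, unlike the libraries here. edgeR and DESeq2 1.42.0 on recovered reads, other pseudocounts, scalings and left-out libraries were alternatives. The members and lists were chosen with earlier results of these data known. Genes named outside the members were Eif4a1, Eif4a2, Eif4a3, Ddx6, Cnot9 and Tnks1bp1, the 3 with the smallest p per list and assay, and the 3 nearest in pattern to Cnot1. No sequences were printed, and coordinates in mm9 were not used here.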

Additional observations from a re-analysis of the deposited data

How the results depend on the processing

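Over 440 alternative values of the members' differences, 410 kept their sign. Fitting the replicate block, a variance prior without a trend, no filter on low values or all 8 libraries jointly leaves the difference as it was. These settings could therefore not turn a sign, and the pooled share says little on how stable the signs are. The reversals were 9 in footprints and 13 in the interaction, all with a library left out, and 8 in total RNA, 7 of them so. With each library left out, the number of members called stayed at 0 in footprints and in the interaction and ranged from 0 to 5 in total RNA. No member was called with the replicate block, the replicate number as a block (0 in each of the 3 comparisons), nor with the crossed pairing. The block took the genes called from 0 to 21 in footprints and to 636 in total RNA (924 crossed), and left 0 in the interaction. Of the pathway genes outside the members, the block called Ago1 in total RNA (0.81, limma adjusted p = 0.0145). The crossed pairing called 5 recruiters and Noct there. Deviations of same-numbered libraries correlated at 0.231 in footprints and -0.275 in total RNA, and with 2 pairs they share only a number. Over all genes, leaving out a library gave 1 to 36 calls in footprints, 34 to 6191 in total RNA and 0 to 1 in the interaction. All 8 libraries in a joint fit gave 89 and 97, DESeq2 272 in total RNA and, without RPF control 2, 10 in footprints, where edgeR's quasi-likelihood test gave 3. Signs that turned with a library left out had these ranges. In footprints they were -0.21 to 0.055 for Cnot1, -0.16 to 0.072 for Cnot10, -0.065 to 0.23 for Cnot4, -0.50 to 0.52 for Cnot6, -0.094 to 0.64 for Cnot7, -0.052 to 1.14 for Btg2, -0.23 to 0.095 for Eif4a3, -0.54 to 0.19 for Paip2b and -0.38 to 0.058 for Tnks1bp1. In total RNA they were -0.15 to 0.022 for Cnot10, -0.12 to 0.049 for Cnot2, -0.11 to 0.89 for Cnot3, -0.16 to 0.14 for Cnot6, -0.14 to 0.13 for Cnot7, -0.033 to 0.41 for Btg2, -0.14 to 0.097 for Ddx6, -0.11 to 0.22 for Eif4a3, -0.40 to 0.0040 for Tnks1bp1 and -0.090 to 0.61 for Tob1. In the interaction they were -0.25 to 0.018 for Cnot1, -0.10 to 0.13 for Cnot10, -0.49 to 0.53 for Cnot6, -0.28 to 0.64 for Cnot6l, -0.089 to 0.65 for Cnot7, -0.35 to 0.18 for Eif4a1, -0.89 to 0.13 for Eif4a2 and -0.29 to 0.045 for Eif4a3. Without RPF control 2, edgeR and DESeq2 gave footprint differences of 0.0336 and 0.0302 for Paip2b, 0.0642 and 0.0645 for Eif4a3, and 0.0251 and 0.0251 for Cnot10. Cnot7 in total RNA was also 0.0016 under median-ratio scaling. Adding a pseudocount of 1 to both paralogs moved no balance by more than the spread between replicates. For the control ratios the alternatives were control 1 alone and control 2 alone, compared with the spread between these same values. That comparison could hardly fail and says nothing on how stable the ratios are. The Cnot3 ratio was 1.80 with control 1 and 4.43 with control 2. The count tests without RPF control 2 and the crossed pairing were chosen after seeing the data.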
